A study of Homo sapiens with 10 samples.

Results

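The nuclear-encoded subunits of the respiratory chain were followed in cultured human proximal tubule cells after irradiation. Members were taken from the count table by gene symbol: protein-coding genes whose symbols begin with NDUFA, NDUFB, NDUFC, NDUFS or NDUFV and a digit (complex I), the genes SDHA to SDHD (complex II), symbols beginning with UQCR (complex III), COX4 to COX8 (complex IV), and ATP5F, ATP5M or ATP5P (complex V, the ATP synthase). The rule returned 88 genes of the 61587 in the table, and 174 pseudogene rows and 6 long non-coding RNA rows with matching symbols were left out. NDUFA4 and NDUFA4L2, whose proteins are now placed in complex IV, were counted there, which gave 37 members in complex I, 4 in complex II, 9 in complex III, 19 in complex IV and 19 in complex V. The rule itself uses symbols and no measured value, though it was written with earlier results of these data known.

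RPTEC/TERT1 cells, a proximal tubule epithelial line immortalised with telomerase, received 10 Gy of gamma radiation or a mock treatment, and RNA was taken 7 days later. There were 5 control and 5 irradiated samples, numbered alike in both groups (replicates 1 to 5), from passages of 1 cell line grown in multi-well plates. The labels do not say whether the replicates were separate cultures, so the p-values measure only the spread between these samples. The table held between 66269311 and 131555873 counts per sample. Levels are given as CPM (counts divided by the library size and scaled alike in all samples) on library sizes normalised by the trimmed mean of M-values (TMM). A fold change is the log2 ratio of irradiated to control from edgeR's quasi-likelihood fit with the replicate number as a block, given with its standard error (SE), and a gene was called at an adjusted p under 0.05 over all genes tested.

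Complexes I, III and IV pass electrons from NADH to oxygen and pump protons across the inner mitochondrial membrane, complex II feeds in electrons from succinate, and complex V uses the proton gradient to make ATP. Most subunits are encoded in the nucleus, translated in the cytosol and imported, and they are assembled with a small core set encoded on mitochondrial DNA, to which complex II contributes none. Proximal tubule cells reabsorb most of the glomerular filtrate and are rich in mitochondria. In bulk RNA, fewer mitochondria-rich cells and less RNA per cell cannot be told apart.

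The epithelial markers of the tubule were present at very different levels. Of 10 tubule epithelium genes, 9 had enough counts to be tested, led by KRT8 at 1010.0 CPM in control samples, with PAX8 at 533 CPM and EPCAM at 289 CPM, named here for their levels. The lowest of the 9 were GGT1 at 10.0 CPM and CUBN at 4.37 CPM in control samples. CDH16, the kidney cadherin, was 246, 330, 288, 162.5 and 203 CPM in control and 148, 237, 149, 92.5 and 108 CPM in irradiated samples, lower in all 5 pairs with overlapping groups (-0.78, SE 0.07, adjusted p = 0.000143). CDH1, E-cadherin, was 264.5 ± 27.0 and 235 ± 33.4 CPM (SD, n = 5 each, -0.18, SE 0.06, adjusted p = 0.0346), a call that was lost without the block (adjusted p = 0.233) and without replicate 1, 2, 3 or 5 (adjusted p from 0.0776 to 0.124). The other 7 tested genes had estimates from 0.10 to 0.33, and none of them was called. The part of these markers in the results was not tested. LRP2, the endocytic receptor megalin, had 17 counts in all 10 samples together. Fibroblast, endothelial and leukocyte markers were near 0: their 14 genes included 10 with fewer than 200 counts over the 10 samples. DCN rose from 0.315 ± 0.195 to 1.75 ± 1.59 CPM (SD, n = 5 each) and CDH5 from 0.596 ± 0.248 to 3.31 ± 0.943 CPM and PECAM1 from 0.860 ± 0.282 to 1.40 ± 0.308 CPM, and their part in the results was not tested. The summed level of the 6 fibroblast genes was 0.294 to 0.664 CPM in control and 0.656 to 4.67 CPM in irradiated samples, that of the 4 endothelial genes 1.08 to 1.97 and 3.75 to 5.69 CPM, and that of the 4 leukocyte genes 0.269 to 0.648 and 0.305 to 0.680 CPM. The markers with the fewest counts, LUM and COL3A1 of fibroblasts, KDR of endothelium and CD3E of T cells, had 2, 4, 2 and 3 counts in all 10 samples together. Other markers of the same lists had more, with 881 for DCN, 1822 for CDH5, 1094 for PECAM1 and 312 for PTPRC. DCN (2.36, SE 0.24, edgeR adjusted p = 0.000201), CDH5 (2.48, SE 0.26, adjusted p = 0.000255) and PECAM1 (0.72, SE 0.15, adjusted p = 0.00519) were called higher. DCN had few counts and passed the count filter only through its irradiated samples, so its call is uncertain. PTPRC was not called (0.27, SE 0.19, adjusted p = 0.283). CDKN1A, a cell cycle inhibitor that rises after DNA damage, stood at 66.7 to 80.9 CPM in 4 of the control samples, at 208 CPM in control replicate 3 and at 584 to 768 CPM in the irradiated samples. Of 5 senescence genes 3 were called higher and 1 lower (60% and 20%, beside 23.9% and 22.7% of all genes tested). Among them were CDKN2B, another cell cycle inhibitor (1.12, SE 0.09, adjusted p = 8.6e-05), and LMNB1, which encodes lamin B1 (-1.73, SE 0.21, adjusted p = 0.000479). GDF15 was not called (0.49, SE 0.28, adjusted p = 0.189). Of 12 proliferation genes 11 were called lower (91.7%, beside 22.7% of all genes tested) and none higher. MKI67 was at -2.57, AURKB at -2.13 and CDK1 at -2.10 (edgeR adjusted p = 0.00141, 0.00177 and 0.00102).

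Most nuclear-encoded subunits tested were lower in irradiated RPTECs, by small amounts. Members were called lower in each of the 5 complexes, and complexes I, II and V each held 1 member called higher. Of 81 members tested, 51 were called lower, 3 were called higher and 27 were not called, beside 22.7% of all 19006 genes tested that were called lower and 23.9% that were called higher (46.6% in either direction). The median fold change of the members was -0.25 on the log2 scale, a 0.84-fold level, and that of all genes tested was -0.01. The estimate was below 0 for 72 of the 81 members, beside 51.2% of all genes tested, and 57 were lower in all 5 same-numbered pairs, beside 24.98% of all genes. The irradiated values lay wholly below the control values for 34 members and wholly above them for 2, beside 12.0% and 14.6% of all genes. The lower and upper quartiles of the members' fold changes were -0.35 and -0.11, and only COX6B2 among those called fell by more than 2-fold. COX6B2 had few counts and passed the count filter only through its control samples. Together the members took 0.639% of all counts in the control samples and 0.499% in the irradiated samples.

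**Figure D1:**
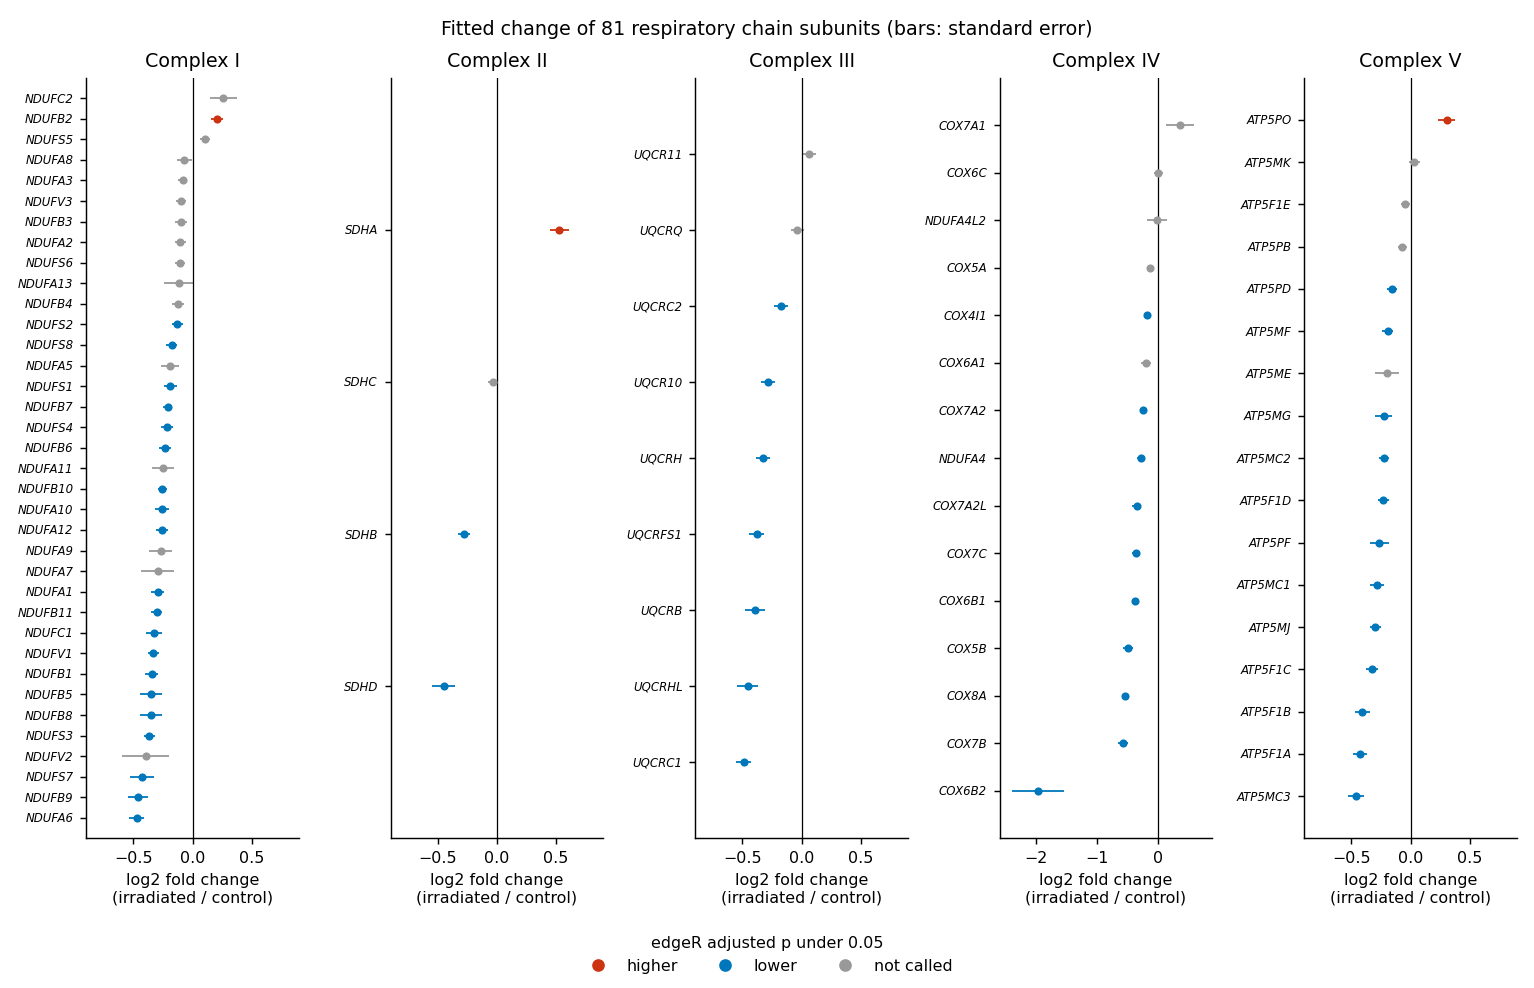
Fitted log2 fold change (horizontal axis, irradiated over control) of each of the 81 members tested, by complex, with bars for the standard error and colour for the call at an adjusted p under 0.05. Most points of every complex sit to the left of 0, and SDHA, NDUFB2 and ATP5PO are the 3 called higher; the axis for complex IV is wider to hold COX6B2.

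Control replicate 3 stood apart from the other control samples. It was the highest of the 5 controls for 68 of the 81 members tested (84.0%), whereas it was the highest control for 30.7% of all genes tested. The median excess of this sample over the mean of the other 4 controls was 0.33 on the log2 scale, a 1.26-fold level. Its CDKN1A level was the highest of the controls, and the summed level of 12 proliferation genes was 275 CPM in it and 297 CPM in control replicate 1, against 739 to 784 CPM in the other 3 controls and 158 to 216 CPM in the irradiated samples. The median coefficient of variation of the members was 12.9% over the 5 controls, 4.79% without replicate 3 and 5.88% over the irradiated samples. Without replicate 3 in both groups, 47 members were called lower and 4 higher, beside 22.1% of 18345 genes called lower, and the median fold change was -0.20. All 47 were among the 51. What part the state of control replicate 3 plays in the falls was not tested beyond this comparison.

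The normalisation changed the size of the shift and the number of calls. With library sizes alone, 64 members were called lower and 2 higher, beside 31.0% of all genes called lower and 19.0% called higher, and the median of all genes moved to -0.09. The members' median was then -0.33. A scaling moves all genes by nearly the same amount, so the gap between the medians of the members and of all genes (-0.24) is the same under both by construction.

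**Figure D2:**
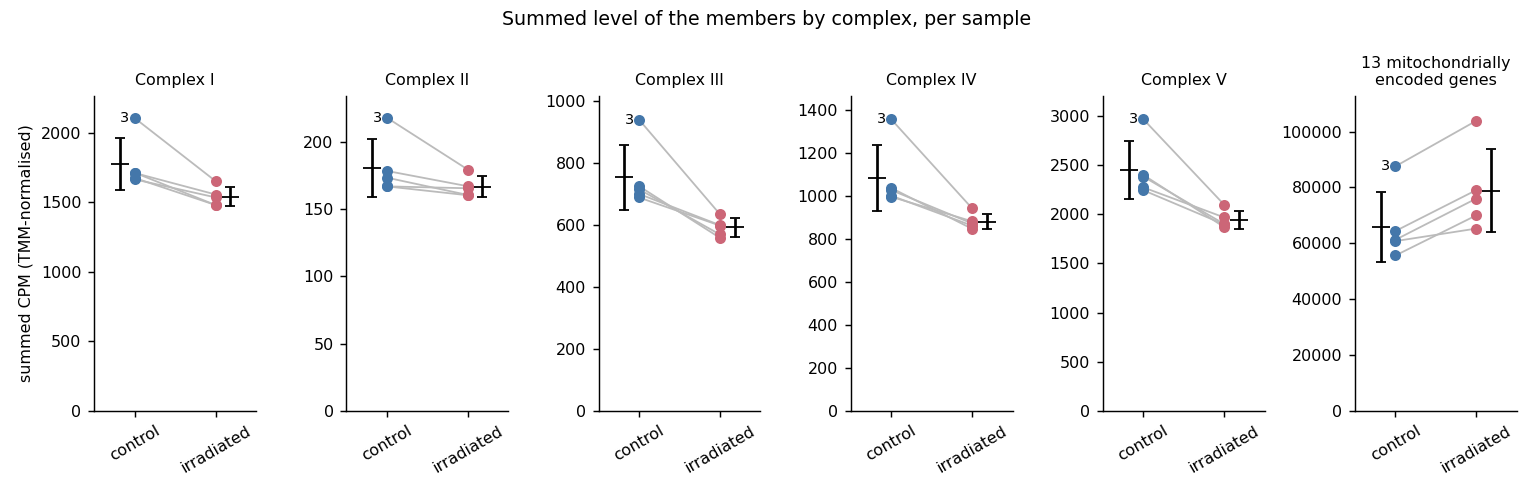
Summed level in CPM (vertical axis, from 0) of the members of each complex and of the 13 protein-coding genes of mitochondrial DNA, with 1 point per sample, grey lines joining samples of the same number and black bars for the mean ± SD (n = 5). The sums of all 5 complexes fall along every line, control replicate 3 (marked 3) is the highest control in each panel, and the mitochondrially encoded sum rises along every line.

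The counts by complex and by part stand beside the 22.7% of all genes tested that were called lower and the 23.9% called higher. Complex I, the NADH dehydrogenase, had 36 members tested, of which 20 were called lower and 1 higher (55.6% and 2.8%), with a median fold change of -0.24. The 7 catalytic core subunits, which hold the flavin and iron-sulfur clusters, included 6 called lower (median -0.33). Of the 11 NDUFB subunits of the membrane arm, 8 were called lower and 1 higher (72.7% and 9.1%, median -0.25). Of the 18 other accessory subunits tested, 6 were called lower and none higher (median -0.20), a share of 33.3% that was nearer the 22.7% of all genes. NDUFA6 (chr22:42085526-42090884, minus strand), an accessory subunit, had the lowest fold change of the complex. Its level was 60.4, 64.0, 87.0, 62.1 and 66.6 CPM in control replicates 1 to 5 and 46.2, 49.0, 51.7, 48.2 and 47.7 CPM in irradiated replicates 1 to 5. Every irradiated sample lay below every control sample, and the fold change was -0.47 (SE 0.06, adjusted p = 0.000758).

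NDUFB9, a membrane arm subunit, followed NDUFA6, with levels of 51.3 to 56.4 CPM in 4 controls, 85.4 CPM in control replicate 3 and 42.5 ± 2.84 CPM (SD, n = 5) after irradiation (-0.46, SE 0.08, adjusted p = 0.00316). NDUFS3, a core subunit that was picked out after its values were seen, was 43.4, 45.2, 53.2, 42.3 and 45.7 CPM in control samples and 35.2, 37.4, 37.9, 33.7 and 33.7 CPM in irradiated samples. Its groups did not overlap, and its fold change was -0.37 (SE 0.05, adjusted p = 0.000684).

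At the other end of complex I stood NDUFC2 and NDUFB2, small membrane subunits. NDUFB2 (chr7:140690777-140722790, plus strand) rose from 22.9, 27.2, 25.4, 23.6 and 25.6 CPM to 28.8, 28.7, 30.7, 27.6 and 27.8 CPM. The groups did not overlap, and the fold change was 0.21 (SE 0.05, adjusted p = 0.0144), a call that was lost with library sizes alone (0.13, adjusted p = 0.0594), with all genes of at least 1 count (0.17, adjusted p = 0.0913) and without replicate 4 (0.20, adjusted p = 0.0548). NDUFC2 was higher in all 5 pairs, at 9.02 ± 1.38 CPM in control and 10.8 ± 1.04 CPM in irradiated samples (SD, n = 5 each), and was not called (0.26, SE 0.11, adjusted p = 0.0974).

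Complex II, succinate dehydrogenase, had members called in both directions. SDHA carries the flavin, SDHB the iron-sulfur clusters, and SDHC and SDHD form the membrane anchor. SDHD (chr11:112086824-112120016, plus strand) was 24.3, 25.2, 38.1, 25.6 and 28.0 CPM in control and 20.2, 22.0, 21.1, 19.9 and 18.9 CPM in irradiated samples, without overlap (-0.45, SE 0.10, adjusted p = 0.00654). SDHB was 52.0, 49.8, 67.6, 52.5 and 52.1 CPM in control and 47.1, 42.8, 50.1, 40.9 and 43.8 CPM in irradiated samples. Irradiated replicate 3 reached the range of the controls for SDHB, which was lower in all 5 pairs and called lower (-0.28, SE 0.05, adjusted p = 0.00348).

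SDHC was between 76.6 and 99.9 CPM in the 10 samples, with overlapping groups (-0.03, SE 0.04, adjusted p = 0.583). SDHA (chr5:218303-257082, plus strand) went the other way. Its level was 10.7, 15.3, 12.3, 14.1 and 11.9 CPM in control samples and 17.3, 17.8, 18.6, 19.0 and 19.2 CPM in irradiated samples. All irradiated samples lay above all control samples, and SDHA had the highest fold change of all members tested (0.53, SE 0.08, adjusted p = 0.00149), and it was called in each of the 14 alternative fits. Of its canonical transcript, 69.4% lies under exons of other annotated genes on either strand. A read assigned to more than 1 gene is not counted, and reads that map to several places are lost too. From which part of the transcript the SDHA counts come was not tested. SDHB and SDHC have no overlap with exons of other genes, and SDHD has 23.8%.

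The other 2 members called higher also overlap other genes, over 24.3% of the canonical transcript for NDUFB2 and 63.8% for ATP5PO. All of the overlap of NDUFB2 is with genes on the opposite strand, and all of that of SDHA with genes on the same strand. For ATP5PO 6.88% of the transcript lies under genes on the opposite strand. Overlap with the opposite strand loses reads only if counting ignored the strand, which is not known. Among the 46 tested members with no such overlap, 35 were called lower and none higher, with a median of -0.27. Among protein-coding genes with no overlap, 26.8% were called lower and 28.3% higher. Of the 20 tested members with over 20% overlap, 8 were called lower and 3 higher (40% and 15%), with a median of -0.21. Of protein-coding genes with over 20% overlap, 20.7% were called lower and 19.1% higher. What part the overlap plays in the calls was not tested.

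Complex III, the cytochrome bc1 complex, had 9 members tested, with 7 called lower, none higher and the lowest median of the 5 complexes (-0.33). UQCRC1 (chr3:48599002-48610976, minus strand), 1 of the pair of core proteins that face the matrix, was 204, 211, 283, 219 and 216 CPM in control and 157, 167, 174, 154 and 149 CPM in irradiated samples. The groups did not overlap, control replicate 3 was far above the other controls, and the fold change was -0.49 (SE 0.06, adjusted p = 0.000521). UQCRFS1, the Rieske iron-sulfur protein which was picked out after its values were seen, fell from 76.3 ± 10.4 to 58.3 ± 1.86 CPM (SD, n = 5 each, log2 fold change -0.38, SE 0.06, adjusted p = 0.00184).

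UQCRHL, an intronless copy of the hinge protein gene UQCRH, was called lower at 3.43 ± 0.287 CPM in control and 2.51 ± 0.226 CPM in irradiated samples (-0.45, SE 0.09, adjusted p = 0.00462). Its reads are hard to separate from those of the near-identical UQCRH, which was also called lower (-0.33, SE 0.06, adjusted p = 0.00342), so the value of UQCRHL is uncertain. The small subunits UQCRQ and UQCR11 were at the other end. UQCRQ was 21.3 to 25.5 CPM in control and 21.0 to 25.3 CPM in irradiated samples (-0.04, SE 0.05, adjusted p = 0.624). UQCR11 was 13.5 to 15.1 CPM and 14.4 to 15.4 CPM (0.06, SE 0.06, adjusted p = 0.391). Both had overlapping groups and neither was called.

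Complex IV, cytochrome c oxidase, had 15 members tested, with 10 called lower, none higher and a median of -0.28. COX7B (chrX:77899440-77907376, plus strand), a small membrane subunit, was 54.2, 50.3, 76.1, 53.5 and 53.0 CPM in control and 38.8, 38.5, 40.1, 36.3 and 37.2 CPM in irradiated samples. No irradiated sample reached the controls, and the fold change was -0.57 (SE 0.08, adjusted p = 0.000753). COX8A and COX5B, picked out after their values were seen, followed with -0.53 (SE 0.05, adjusted p = 0.000158) and -0.49 (SE 0.08, adjusted p = 0.0016). For COX8A control replicate 3 was the highest control by a small margin, with controls at 23.2, 26.2, 27.6, 23.6 and 22.5 CPM and irradiated samples at 16.9, 17.7, 18.1, 17.3 and 14.9 CPM.

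COX4I1, the regulatory subunit that binds ATP and with the second highest level per length, showed a smaller fall. It was 256, 238, 331, 243 and 264 CPM in control and 233, 227, 257, 233 and 227 CPM in irradiated samples. The groups overlapped through irradiated replicate 3, and the fold change of -0.17 (SE 0.06, adjusted p = 0.0389) was no longer called without the block (adjusted p = 0.137), with a length correction (adjusted p = 0.0698), or when replicate 1, 3, 4 or 5 was left out (adjusted p from 0.0593 to 0.134). COX6C was 28.8 ± 5.11 CPM in control and 28.7 ± 1.48 CPM in irradiated samples (SD, n = 5 each), with overlapping groups and a fold change of 0.01 (SE 0.07, adjusted p = 0.905) whose sign differed between scalings.

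Complex V, the ATP synthase, had 17 members tested, with 12 called lower and 1 higher and a median of -0.23. By part, the F1 head that makes ATP had 4 of 5 subunits called lower (80%, median -0.32) and the proton-driven c ring 3 of 3 (median -0.28). The peripheral stalk had 2 of 4 called lower and 1 higher (50% and 25%, median -0.11), and the other membrane subunits 3 of 5 lower (60%, median -0.20). ATP5MC3, 1 of the 3 genes for the identical mature c subunit, was 169, 173, 245, 181 and 176 CPM in control and 142, 128, 145, 135 and 129.5 CPM in irradiated samples. The groups did not overlap, and the fold change was -0.46 (SE 0.07, adjusted p = 0.00138). ATP5F1A, the alpha subunit of the head, fell from 634 ± 75.9 to 470.1 ± 16.6 CPM (-0.43, SE 0.06, adjusted p = 0.00107).

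ATP5F1B (chr12:56638175-56645984, minus strand), the catalytic beta subunit, had the highest level of all members per kilobase of canonical transcript, at 426 CPM per kb in control and 319 CPM per kb in irradiated samples. COX4I1 followed with 349 and 309 CPM per kb, and COX6B1, a subunit on the intermembrane side of complex IV, with 276 and 213 CPM per kb. ATP5F1B was 689, 672, 929, 722 and 729.5 CPM in control and 591, 533, 615, 536 and 533 CPM in irradiated samples. All irradiated samples lay below all controls (-0.41, SE 0.06, adjusted p = 0.00146). COX6B1 was likewise called lower (-0.37, SE 0.06, adjusted p = 0.00177).

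ATP5PO (chr21:33903453-33915814, minus strand), the stalk subunit that confers oligomycin sensitivity, rose from 7.83, 9.89, 12.1, 9.83 and 9.16 CPM to 11.0, 12.9, 13.2, 11.7 and 11.2 CPM. It was higher in all 5 pairs although the groups overlapped through control replicate 3, and its fold change was 0.31 (SE 0.07, adjusted p = 0.00961). The call was lost by a small margin without the block (0.30, adjusted p = 0.0519). ATP5MK, a small membrane subunit, was 54.4 to 77.8 CPM in control and 55.1 to 73.1 CPM in irradiated samples and was not called (0.03, SE 0.05, adjusted p = 0.607).

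**Figure D3:**
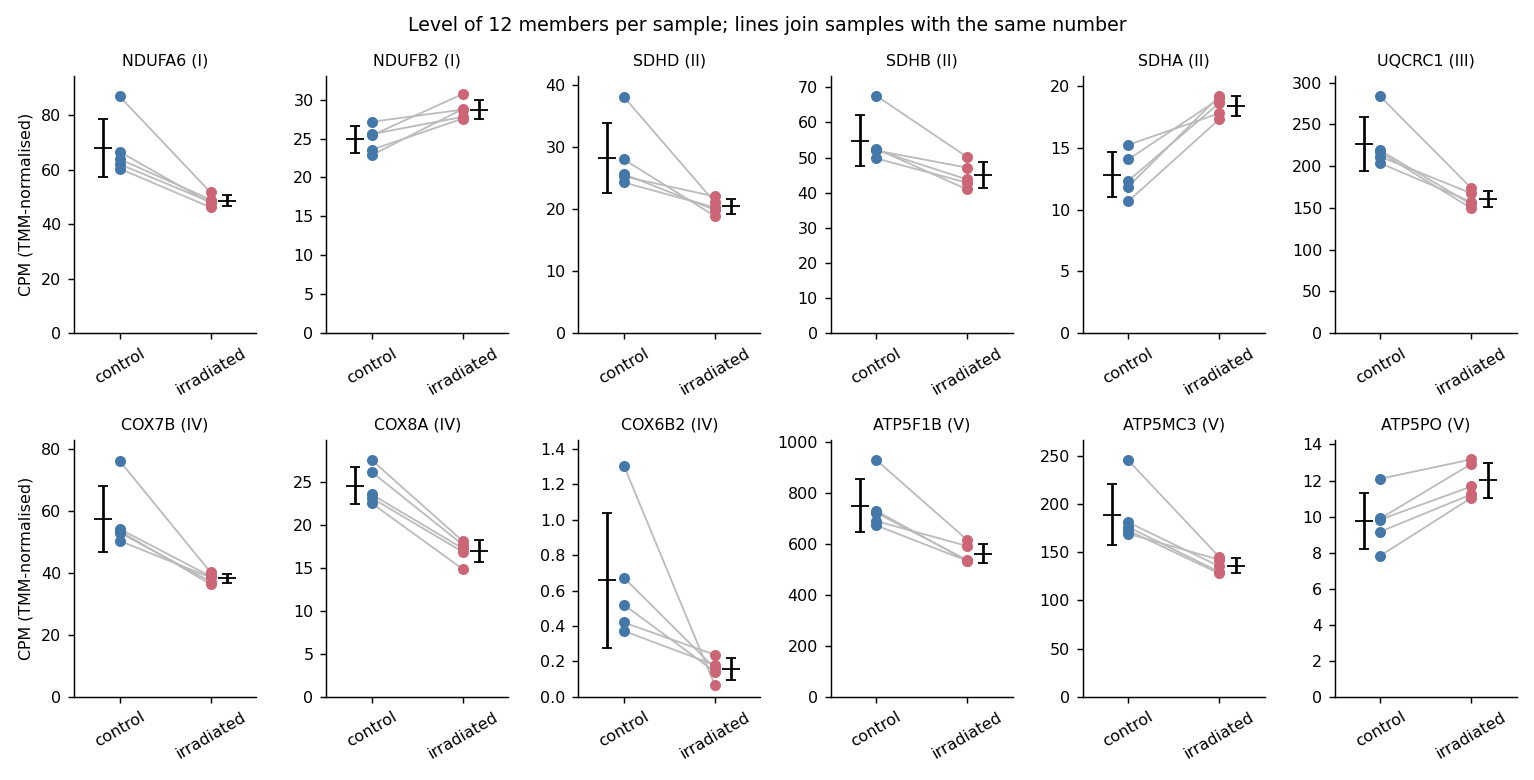
Level in CPM (vertical axes, from 0) of 12 members in the 5 control and 5 irradiated samples, with grey lines between samples of the same number and black bars for the mean ± SD. NDUFB2, SDHA and ATP5PO rise along every line, the other 9 fall along every line, and the single high control point in most panels is control replicate 3.

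Several subunits of complexes III, IV and V have isoforms from separate genes, and 12 isoform pairs were listed. In 4 pairs the tissue-specific member had fewer than 200 counts over the 10 samples: COX6A2 had 0 counts, COX7B2 had 1, COX4I2 had 18 and COX8C had 30. These are isoforms known from muscle, lung and testis. The other 3 untested members were ATP5MGL with 65 counts and the read-through genes ATP5MF-PTCD1 with 69 counts and NDUFC2-KCTD14 with 2 counts. The log2 ratio of CPM + 0.1 between the members of the other 8 pairs was compared by an exact two-sided permutation test of 5 against 5 samples, whose smallest p is 0.00794, adjusted over the 8 pairs.

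The ratios of 3 pairs were past the threshold. COX6B2, the testis isoform of COX6B1, was 0.673, 0.372, 1.31, 0.520 and 0.420 CPM in control and 0.162, 0.179, 0.0648, 0.142 and 0.238 CPM in irradiated samples. It was low in all samples, with 412 counts in total, and the groups did not overlap (-1.97, SE 0.43, edgeR adjusted p = 0.00732). Its log2 ratio to COX6B1 went from -7.58 ± 0.42 to -8.69 ± 0.47 (SD, n = 5 each, exact permutation adjusted p = 0.0317). With a pseudocount of 1 CPM that difference of -1.11 shrank to -0.13 (exact permutation adjusted p = 0.265).

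Within the c ring the balance between genes moved although all 3 were called lower. ATP5MC1 fell by 0.28 on the log2 scale (SE 0.06, adjusted p = 0.00488) and ATP5MC2 by 0.23 (SE 0.04, adjusted p = 0.00339), against 0.46 for ATP5MC3. The log2 ratio of ATP5MC2 to ATP5MC3 rose from -0.99 ± 0.14 to -0.76 ± 0.09 and that of ATP5MC1 to ATP5MC3 from -1.65 ± 0.07 to -1.47 ± 0.09 (SD, n = 5 each, exact permutation adjusted p = 0.0317 and 0.0423). Both ratios were higher in all 5 pairs. With the difference taken within pairs, 5 pairs cannot give a p below 0.0625, so no ratio could pass that test. When any 1 replicate was left out, the differences of both ratios kept their direction. With 4 against 4 samples the smallest exact p is 0.0286, and a ratio can pass only if at least 5 of the 8 reach it, so those tests say little about the calls.

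The other 5 ratios were not past the threshold. COX7A1, the muscle isoform, was 0.386 ± 0.0923 CPM in control and 0.496 ± 0.121 CPM in irradiated samples beside COX7A2 at 72.6 ± 9.62 and 61.2 ± 1.92 CPM, and the log2 ratio differed by 0.53 (exact permutation adjusted p = 0.0635). NDUFA4L2, an isoform induced by hypoxia, was at 0.289 ± 0.0768 and 0.286 ± 0.0597 CPM beside NDUFA4 at 113 ± 11.9 and 92.9 ± 2.84 CPM, and the ratio differed by 0.28 (exact permutation adjusted p = 0.29). With a pseudocount of 1 CPM both of these ratios passed (0.34 and 0.27, each with exact permutation adjusted p = 0.0317). COX7A1 and NDUFA4L2 lie below the added 1 CPM, so these ratios mostly restate the falls of COX7A2 and NDUFA4. NDUFA4 itself was called lower (-0.28, SE 0.05, adjusted p = 0.00431), as were COX7A2 (-0.24, SE 0.06, adjusted p = 0.0132) and COX7A2L (-0.34, SE 0.08, adjusted p = 0.00753), which helps to join complexes III and IV.

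The ratio of COX7A2L to COX7A2 differed by -0.11, that of ATP5MC1 to ATP5MC2 by -0.06 and that of UQCRHL to UQCRH by -0.11 (exact permutation adjusted p = 0.229, 0.508 and 0.29). COX6A1, whose isoform COX6A2 had no counts, was lower in all 5 pairs and was not called (-0.19, SE 0.08, adjusted p = 0.0974). It was called with library sizes alone (-0.27, edgeR adjusted p = 0.0309), and it ranged from -0.23 to -0.11 when 1 replicate was left out.

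The other genes of the pathway were read from lists chosen for their roles, and their counts stand beside the 22.7% of all genes tested that were called lower and the 23.9% called higher. Assembly factors, which build the complexes without staying in them, were called in both directions. For complex I, 3 of 17 were called higher and 4 lower (17.6% and 23.5%, median -0.04), with NDUFAF8 at 19.4 ± 1.87 CPM in control and 30.8 ± 1.89 CPM in irradiated samples (SD, n = 5 each, 0.67, SE 0.07, adjusted p = 0.000247), ECSIT at -0.55 (SE 0.07, adjusted p = 0.000734) and NDUFAF6 at 0.34 (SE 0.08, adjusted p = 0.00926). For complex II, none of 4 was called. For complex III, 3 of 6 were called higher and 2 lower (50% and 33.3%, median 0.03), with UQCC2 at -0.40, UQCC3 at -0.36 and TTC19 at 0.27. For complex IV, 4 of 22 tested were called lower (18.2%) and none higher (median -0.04), among them CMC2 at -0.41, COX20 at -0.33 and TACO1 at -0.21. For complex V, 1 of 5 was called in each direction (20% each), TMEM242 at 0.24 and ATPAF1 at -0.19. The shares for complexes I and V were near those of all genes, and lists this short give coarse shares. The calls of UQCC3, COX20 and TACO1 were each lost in 4 of the 5 fits that left out 1 replicate, with edgeR adjusted p up to 0.161, 0.161 and 0.15, and over all 14 alternative fits they were lost in 10, 6 and 7.

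Subunits and carriers that the symbol rule did not reach included CYC1, the cytochrome c1 subunit of complex III, and CYCS, the mobile cytochrome c. Of 6 such genes 3 were called lower (50%) and none higher (median -0.17): CYCS at -0.33 (SE 0.08, adjusted p = 0.00975), HIGD2A at -0.33 (SE 0.07, adjusted p = 0.00475) and CYC1 at -0.26 (SE 0.05, adjusted p = 0.00381). Of 7 genes for enzymes and carrier subunits on the routes of electrons from other substrates to ubiquinone, 4 were called lower and 2 higher (57.1% and 28.6%, median -0.21). GPD2, the mitochondrial glycerol phosphate dehydrogenase, fell from 109 ± 13.5 to 63.1 ± 4.99 CPM (-0.78, SE 0.05, adjusted p = 4.1e-05), whereas SQOR, which oxidises sulfide, rose from 8.84 ± 1.27 to 19.3 ± 2.56 CPM (1.13, SE 0.10, adjusted p = 9.8e-05) and PRODH, proline dehydrogenase, from 1.38 ± 0.521 to 3.75 ± 0.41 CPM (1.49, SE 0.23, adjusted p = 0.00144, all SD with n = 5).

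The 13 enzyme genes of the citrate cycle included 5 called lower (38.5%) and none higher (median -0.12), with SUCLG1 at -0.57, FH at -0.53 and IDH3A at -0.34 (edgeR adjusted p = 0.000316, 0.000249 and 0.0152). The call of IDH3A was lost without replicate 5 (adjusted p = 0.0548). SDHA to SDHD, which belong to both the cycle and the chain, were counted among the members only.

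The 13 protein-coding genes of mitochondrial DNA, whose products join complexes I, III, IV and V, did not share the direction of the nuclear subunits. None was called lower and 9 were called higher (69.2%, beside 23.9% of all genes, median 0.23), with estimates from 0.16 to 0.33. MT-CO1 was 0.33 (SE 0.09, adjusted p = 0.0168), MT-CYB 0.33 (SE 0.07, adjusted p = 0.00698) and MT-ND2 0.31 (SE 0.07, adjusted p = 0.00694). Their summed level was 64390, 61250, 87560, 55630 and 60780 CPM in control and 79070, 76040, 103900, 70020 and 65280 CPM in irradiated samples, higher in each pair with overlapping groups. Without the block none of the 13 was called, with library sizes alone 6 were called higher, and when replicates were left out in turn 4 to 9 were called higher and none lower, with MT-CO1 not called without replicate 1 or 4 (adjusted p = 0.0631 and 0.0673). Within same-numbered pairs the median log2 difference was -0.15, -0.16, -0.39, -0.23 and -0.24 for the nuclear members of pairs 1 to 5 and 0.28, 0.30, 0.19, 0.33 and 0.10 for the mitochondrial genes. The libraries were enriched for polyadenylated RNA, and how completely that captures mitochondrial transcripts was not tested.

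**Figure D4:**
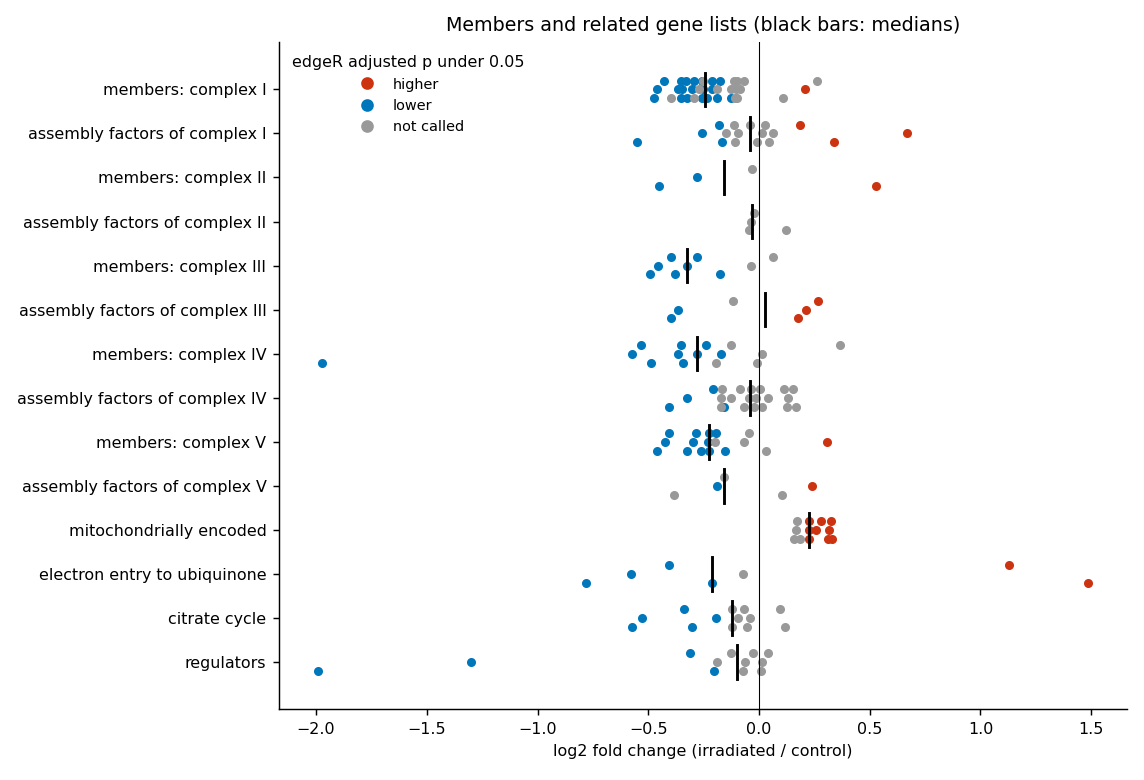
Fitted log2 fold change (horizontal axis, irradiated over control) of the members by complex and of the related lists, with 1 point per tested gene coloured by its call and a black bar at each median. The medians of the members lie between -0.33 and -0.16, those of the assembly factors between -0.16 and 0.03, and all 13 mitochondrially encoded genes lie above 0.

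Of 12 regulators of mitochondrial gene expression, 4 were called lower (33.3%, beside 22.7% of all genes) and none higher (median -0.10). PPARGC1A, the coactivator PGC-1 alpha, was 54.8, 43.8, 81.6, 43.2 and 49.0 CPM in control and 24.7, 25.6, 20.1, 18.2 and 19.7 CPM in irradiated samples. Its groups did not overlap (-1.30, SE 0.15, adjusted p = 0.000436). ESRRG, an orphan nuclear receptor that acts with it, was 18.3, 20.2, 29.0, 12.4 and 17.3 CPM in control and 4.68, 8.44, 3.48, 3.78 and 4.30 CPM in irradiated samples, without overlap (-1.99, SE 0.23, adjusted p = 0.000369). ESRRA was called at -0.31 (SE 0.11, adjusted p = 0.0431), with control replicate 3 at 133 CPM and the other controls at 70.8 to 83.6 CPM, and without replicate 3 it was -0.17. The call of ESRRA was lost without the block (adjusted p = 0.101), with the GC correction (adjusted p = 0.0713) and without replicate 1, 2, 4 or 5 (adjusted p from 0.0544 to 0.099). NRF1 (-0.20, SE 0.06, adjusted p = 0.0272) was also called lower. It and the genes named next were picked out for their roles. GABPA, GABPB1, TFAM and TFB2M were between -0.06 and 0.04 and were not called. YY1 was lower in all 5 pairs and was not called (-0.13, SE 0.05, edgeR adjusted p = 0.0548).

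Promoters of the members were described by 3 short motifs of regulators known to act at such genes, searched in RefSeq promoter windows (GRCh38.p14, 250 bases before and 50 after the start site) on both strands: GCGCANGCG for NRF1, CCGGAAG for the ETS factor GABP and AANATGGCG for YY1. Windows were found for 71 of the 88 members, 85 windows in all since a gene can have several. The NRF1 letters were in 27.1% of the members' windows, beside 7.52% of all 35116 windows and 9.64% of those of protein-coding genes. The ETS letters were in 25.9%, beside 10.3% and 12.8%, and the YY1 letters in 22.4%, beside 3.19% and 4.24%. At least 1 of the motifs was in 55.3% of members' windows and in 23.3% of protein-coding windows. By call, the NRF1 letters were in 18.9% of the 53 windows of members called lower and in 42.9% of the 28 windows of the other members tested. The ETS letters were in 30.2% and 21.4% and the YY1 letters in 26.4% and 17.9% of the same windows, and none of these differences was tested. With the 3 motifs together, 54.7% of the 53 windows of members called lower held 1 or more, as did 60.7% of the 28 windows of the other members tested. A match is a description of the letters and not a site shown to be bound.

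The 250 bases before the start site are shown for 4 members with matches, chosen after their values were seen: UQCRC1, COX5B and SDHD, which were called lower, and SDHA, which was called higher. Capitals mark the motif letters on either strand, and each sequence reads 5' to 3' on the gene's strand.
UQCRC1 (chr3:48609647-48609896, minus strand, NRF1 letters): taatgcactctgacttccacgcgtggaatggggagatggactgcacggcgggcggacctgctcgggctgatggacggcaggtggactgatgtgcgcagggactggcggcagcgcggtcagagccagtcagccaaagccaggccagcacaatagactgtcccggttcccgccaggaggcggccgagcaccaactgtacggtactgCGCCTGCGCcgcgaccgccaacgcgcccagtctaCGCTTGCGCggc
COX5B (chr2:97645812-97646061, plus strand, ETS letters): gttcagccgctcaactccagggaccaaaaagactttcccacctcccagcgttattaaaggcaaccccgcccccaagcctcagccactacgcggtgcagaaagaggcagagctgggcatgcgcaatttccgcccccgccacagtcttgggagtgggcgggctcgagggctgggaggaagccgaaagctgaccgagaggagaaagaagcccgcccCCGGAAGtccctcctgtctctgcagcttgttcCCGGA
SDHD (chr11:112086623-112086872, plus strand, NRF1 and ETS letters): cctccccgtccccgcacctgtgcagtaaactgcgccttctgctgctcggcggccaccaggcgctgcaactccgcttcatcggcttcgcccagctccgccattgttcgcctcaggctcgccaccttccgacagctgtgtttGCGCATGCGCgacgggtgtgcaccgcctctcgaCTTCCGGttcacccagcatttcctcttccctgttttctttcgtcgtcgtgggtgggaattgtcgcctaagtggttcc
SDHA (chr5:218070-218319, plus strand, NRF1 letters): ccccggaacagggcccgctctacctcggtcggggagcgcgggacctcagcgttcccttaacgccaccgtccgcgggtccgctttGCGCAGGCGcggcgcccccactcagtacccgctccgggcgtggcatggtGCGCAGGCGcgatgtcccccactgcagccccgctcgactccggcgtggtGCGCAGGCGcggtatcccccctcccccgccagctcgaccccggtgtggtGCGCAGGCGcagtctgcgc

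UQCRC1 held the NRF1 letters on the minus strand beginning 46 and 12 bases before its start, and the YY1 letters as AAGATGGCG beginning 23 bases after it. COX5B held the ETS letters 37 and 5 bases before its start. SDHD held the NRF1 letters as overlapping matches on both strands, beginning 110 and 109 bases before its start, and the ETS letters on the minus strand 77 bases before it. SDHA held GCGCAGGCG 4 times, beginning 166, 117, 68 and 19 bases before its start. SDHD and SDHA both hold NRF1 letters and were called in opposite directions, and what part the letters play in the direction was not tested.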

How the data were processed

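PolyA-enriched RNA from 5 control and 5 irradiated samples was sequenced, and the authors deposited raw read counts per gene, one column per sample. Per the study's methods, adapters were trimmed with Trim-Galore, reads were aligned to GRCh38 with STAR and its gene counts were taken, and the authors analysed them with DESeq2. The annotation release and the use of strand are not given in the sources used here. The library kit differs between the labels and the methods, and the labels number the cell line name upwards across samples where the design names 1 line. With such counts, reads that fall on overlapping genes or map to several places are lost.

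Identifiers were matched to GENCODE release 44 (61369 of 61587), which gave coordinates, canonical transcript lengths and overlaps. The 19006 genes whose counts summed to 200 or more were fitted with edgeR 4.0.16 (R 4.3.3) by its quasi-likelihood test, with TMM factors and the replicate number as a block, as the authors did in their own design, and Benjamini-Hochberg adjustment over all genes tested. Members were read from that fit. The correlations of deviations from the group means were 0.217 to 0.508 for same-numbered samples and -0.354 to 0.317 for samples of different numbers. The ranges overlap through replicate 2. Deviations within a group cancel out, which by itself pulls the correlations between different numbers down. Alternatives were DESeq2 1.42.0, limma 3.58.1 with voom, other scalings and filters, no block, length and GC corrections, and leaving out each replicate. The fits were tested on simulated data, where the share of false calls was above its nominal level with DESeq2. The members, lists and tests were chosen with earlier results of these data known. Named members were, by complex, the 2 highest and 2 lowest in fold change, all 4 of complex II, the isoform pairs and the 3 with the highest level per kilobase, and up to 3 called genes of each other list; exceptions are marked in the text. A further gene was left out of the tubule epithelium list and its counts and is not reported here.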

Additional observations from a re-analysis of the deposited data

Results flagged for a closer look

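Within each group of 5 samples, the highest or lowest value was compared with the rest by Dixon's criterion. Of 160 groups of values, 29 held a sample that stood apart, where chance gives about 1 in 20 (8.0), and 20 of the 29 were control replicate 3.

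In control replicate 3, the members ATP5F1A (765 CPM), ATP5F1B (929 CPM), ATP5MC2 (104.0 CPM), ATP5MC3 (245 CPM), ATP5MK (77.8 CPM), COX4I1 (331 CPM), COX5B (99.9 CPM), COX7A2 (89.3 CPM), COX7B (76.1 CPM), NDUFA6 (87.0 CPM), NDUFB9 (85.4 CPM), SDHB (67.6 CPM), SDHD (38.1 CPM), UQCRC1 (283 CPM) and UQCRFS1 (94.3 CPM) stood above the other 4 controls. Over all 81 members tested, 29 had this sample far above the other controls by the same criterion. Genes outside the members were set apart in the same sample: CDKN1A (208 CPM), CYC1 (155 CPM), ESRRA (133 CPM), MT-CYB (5650.0 CPM) and MT-ND2 (4092 CPM) were high.

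Irradiated replicate 3 was high for COX4I1 (257 CPM), COX7A2L (63.3 CPM), MT-CYB (7631 CPM) and MT-ND2 (5268 CPM). Irradiated replicate 2 was high for DCN (4.45 CPM), ESRRG (8.44 CPM) and UQCC3 (1.12 CPM). Control replicate 1 was low for FH (60.5 CPM, against 73.2 to 76.5 CPM), and the log2 ratio of ATP5MC1 to ATP5MC3 was high in control replicate 2 (-1.53). The cause of these values was not tested.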

How the results depend on the processing

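All 190 recomputed counts of called members and median fold changes, over the members and by complex, stayed within 1.5 times or within the spread between pairs of the reported value, also with read-through genes left out and with NDUFA4 and NDUFA4L2 counted in complex I. Without the replicate block, 44 members were called lower and 2 higher, with a median of -0.25, and the paired and unpaired fits agreed on all 44. Leaving out 1 replicate at a time gave 40 to 49 lower, 2 to 4 higher and medians of -0.26 to -0.20. DESeq2, which made more false calls than its nominal level on simulated counts, called 52 lower and limma-voom 52. Using only members with no exon under another gene, an alternative chosen after the data were seen, the median was -0.27.

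Of 1008 values recomputed for 72 named genes, 942 kept their direction and their side of the threshold, 50 lost the call, 1 gained it and 15 changed sign. The gained call was that of COX6A1 with library sizes alone. The sign changes all concerned genes that were not called. COX6C moved to -0.023 with at least 1 count, -0.064 with library sizes alone, -0.0029 without the replicate block, -0.00088 with the GC correction and -0.020 with upper-quartile scaling, and ranged from -0.045 to 0.086 when 1 replicate was left out. ATP5MK moved to -0.0041, -0.045 and -0.0017 with at least 1 count, library sizes alone and upper-quartile scaling, and UQCR11 to -0.014 with library sizes alone. NDUFA4L2 moved to 0.026 with the GC correction and 0.023 with the length correction and ranged from -0.090 to 0.11 when 1 replicate was left out, and SDHC from -0.041 to 0.0068.

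The isoform ratios are limited by the tests the sample size allows. With differences taken within pairs (replicate block), 0 of 8 ratios passed: COX6B2 to COX6B1 differed by -1.11, ATP5MC1 to ATP5MC3 by 0.18 and ATP5MC2 to ATP5MC3 by 0.23, since 5 pairs cannot reach the threshold. Leaving out 1 replicate, 0 passed, which 4 against 4 samples come close to fixing by their smallest exact p of 0.0286; the differences kept their direction, at -1.33 to -0.76, 0.13 to 0.21 and 0.18 to 0.28. With a pseudocount of 1 CPM 4 passed: COX7A1 to COX7A2 (0.34) and NDUFA4L2 to NDUFA4 (0.27) gained the call, with the added CPM above the levels of COX7A1 and NDUFA4L2, and COX6B2 to COX6B1 lost it (-0.13).

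Depth limits COX6B2, COX7A1 and NDUFA4L2, with 284 to 430 counts in total.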

Other observations

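Pseudogene rows with symbols that match the rule held few counts. These 174 rows held 9589 counts in all 10 samples together, 0.169% of the 5666140 counts on the members, and 9 of the rows reached 200 counts. The rule takes SDHA to SDHD as whole symbols, so pseudogenes of complex II are not among these rows. Reads that map to several places are lost from such counts, so how many reads pseudogenes drew was not tested. The share of all counts on genes of mitochondrial DNA ran from 7.78% to 10.7% in control samples and reached 12.2% in irradiated samples, and in both groups replicate 3 was the highest.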
